A study of Mus musculus with 4 samples.

Results

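A set of 10 genes for growth factor receptors was examined in H3K4me3 HiChIP of MLg cells, an established line of mouse lung fibroblasts, as 10 of 21755 protein-coding genes of GENCODE on mm10. They were Pdgfra, Pdgfrb, Kit, Kdr, Fgfr1, Fgfr2, Egfr, Met, Igf1r and Axl, chosen by name as receptor tyrosine kinases for growth factors, including Kit and Kdr, the neighbours of Pdgfra. HiChIP ligates DNA fragments that lie together in the nucleus and precipitates those that carry H3K4me3, the histone mark of active promoters, so that each sequenced pair of ends gives both the mark and a contact. There were 4 libraries, 1 per condition and without replicates. They are given throughout in the order Control, TGFB1 alone, both treatments together (TGFB1+miR-9-LOF), then miR-9-LOF alone. Cells were transfected with an antagomiR at 60 nM and harvested at 24 h, against miR-9-5p in both loss-of-function (LOF) libraries and as a negative control in the others by the study's group descriptions (the labels call the first WT), and human recombinant TGFB1 was added at 5 ng/ml for the last 4 h in the libraries named for it. The conditions shared the cell line, the transfection and the antibody. The loss of miR-9 rested on 1 antagomiR.

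Receptor tyrosine kinases span the cell membrane and in most cases pair when a ligand binds. They phosphorylate each other and the adaptors that pass the signal to the Ras-MAPK and PI3K pathways. In lung fibroblasts, the platelet-derived growth factor (PDGF) receptors are the classic receptors for proliferation and migration, whereas Kit, the receptor of stem cell factor, and Kdr, the VEGF receptor of endothelium, are known from other cell types. Pdgfra, Kit and Kdr lie beside each other on chromosome 5, all in reach of one another for pairs up to 2 Mb apart. The miRNA blocked here is shown in its mature form from RefSeq, with its seed, bases 2 to 8, in capitals, since it defines the LOF libraries.
mmu-miR-9-5p: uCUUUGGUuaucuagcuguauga

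Promoter sequences of the 3 neighbours on chromosome 5 and of Igf1r are shown because of those neighbours Pdgfra carried the mark and Kit and Kdr did not, and because the ends of Igf1r had the lowest ratio of the receptors between miR-9-LOF and Control. They are the 250 bases before the RefSeq start site in GRCm38.p6, on the strand of the gene, at chr5:75152001-75152250 (Pdgfra, plus strand), chr5:75574737-75574986 (Kit, plus strand), chr5:75978456-75978705 (Kdr, minus strand) and chr7:67952007-67952256 (Igf1r, plus strand). Capitals mark matches to a G-quadruplex motif, 4 or more runs of at least 3 G with 1 to 7 bases of any kind between them, searched on both strands, so that a match in C lies on the other strand.
Pdgfra: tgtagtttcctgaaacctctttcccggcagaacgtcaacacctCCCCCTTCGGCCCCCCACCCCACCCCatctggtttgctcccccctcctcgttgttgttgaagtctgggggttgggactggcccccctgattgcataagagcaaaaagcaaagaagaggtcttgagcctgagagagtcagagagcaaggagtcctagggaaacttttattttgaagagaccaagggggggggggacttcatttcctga
Kit: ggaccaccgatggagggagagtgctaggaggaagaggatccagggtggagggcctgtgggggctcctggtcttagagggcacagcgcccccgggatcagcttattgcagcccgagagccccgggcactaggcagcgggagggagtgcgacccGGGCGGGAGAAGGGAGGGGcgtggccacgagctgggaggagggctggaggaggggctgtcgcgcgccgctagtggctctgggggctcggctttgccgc
Kdr: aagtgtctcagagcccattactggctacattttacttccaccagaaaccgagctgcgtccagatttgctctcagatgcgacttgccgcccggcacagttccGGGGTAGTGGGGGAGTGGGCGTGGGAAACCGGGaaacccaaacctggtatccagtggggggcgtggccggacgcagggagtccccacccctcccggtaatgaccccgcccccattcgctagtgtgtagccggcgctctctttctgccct
Igf1r: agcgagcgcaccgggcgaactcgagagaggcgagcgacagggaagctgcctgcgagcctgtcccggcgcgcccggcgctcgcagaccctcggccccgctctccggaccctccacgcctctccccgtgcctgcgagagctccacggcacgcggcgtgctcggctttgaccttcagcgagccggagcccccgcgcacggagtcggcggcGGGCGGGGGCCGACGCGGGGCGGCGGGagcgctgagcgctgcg

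The motif was found in 6 of the 8 receptor promoters with a sequence of 300 bases (250 before and 50 after the start): Pdgfra, Kit, Kdr, Egfr, Met and Igf1r. It was absent from these letters in Fgfr2 and Axl, and Fgfr1 and Pdgfrb had no entry. Of all 16450 coding promoters with an entry, 22.2% held the motif, and of the 6562 with an H3K4me3-enriched region, 28.6%. Among the 8, Kit and Kdr held the motif and lacked the mark, while Fgfr2 and Axl carried the mark without it. The entries of Fgfr2 and Igf1r began 617 and 570 bases from the GENCODE start sites used for counting. That of Pdgfra lay at a start with little of the mark itself. The 1-kb bin at this start held 196 pooled ends, and the bin 4 kb downstream, at another annotated start, held 1749. The number of CpG dinucleotides ranged from 4 in Fgfr2 to 48 in Igf1r, with 20 in Kit and 19 in Kdr, against a median of 14 over all promoters.

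The libraries held 15359978, 10864558, 14121095 and 15568047 valid pairs. They differed in how far H3K4me3 had been enriched: 9.55%, 6.88%, 4.02% and 4.66% of all ends lay in the 8519 enriched regions. An enriched region lay at 7 of 14 fibroblast markers, against 38.1% of all coding promoters. Twist2, Col5a1 and Vim were among these markers, whereas Col1a2, Col3a1, Fn1, Thy1, Tcf21, Tbx4 and Meox2 had no region. A region also lay at 1 of 9 epithelial markers (Foxa1) and at 2 of 6 smooth muscle and pericyte markers (Acta2 and Notch3). None was found at the endothelial (0 of 8) and immune markers (0 of 8). Fewer marked cells and less mark per cell cannot be told apart in such bulk libraries. With 1 library per condition, every test below compares libraries, not conditions, and its error is counting error only.

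The start sites lay at 75152306 (Pdgfra, plus strand), 75574955 (Kit, plus) and 75978458 (Kdr, minus) on chromosome 5, at 130266191 (Fgfr2, minus), 67952827 (Igf1r, plus) and 25788687 (Axl, minus) on chromosome 7, and at 61045150 on chromosome 18 (Pdgfrb, plus), 25518759 on 8 (Fgfr1, plus), 16752211 on 11 (Egfr, plus) and 17463800 on 6 (Met, plus). The mark was present at 8 of the 10 receptors and at background at Kit and Kdr. Both PDGF receptors, both FGF receptors, Egfr (the EGF receptor), Met (the receptor of hepatocyte growth factor), Igf1r (the receptor of insulin-like growth factor 1) and Axl (the receptor of Gas6) had an enriched region within 2 kb of the start site, as 38.1% of coding promoters did. Ends within 2 kb of the start were counted and divided by the count at the median coding promoter of the same library. In this window Fgfr2 had the highest level, with 1125, 608, 418 and 500 ends in the 4 libraries. These were 10.6, 8.69, 5.16 and 5.56 times the median promoter. Egfr followed with 1052, 481, 307 and 497 ends in the same order, 9.92 to 3.79 times the median. Egfr stood above Fgfr1 in 3 of 4 libraries. In all 4 libraries Fgfr2 stood above Egfr, but their 95% counting intervals overlapped in 2.

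Fgfr1, Axl, Igf1r and Met formed a group whose order changed from library to library, at 6.73 to 7.79 times the median promoter in Control and 3.64 to 3.84 times in TGFB1+miR-9-LOF. The counts were 803, 389, 311 and 357 for Fgfr1, 713, 394, 295 and 410 for Axl, 826, 352, 301 and 337 for Igf1r, and 729, 368, 301 and 372 for Met. Pdgfra, with 653, 338, 243 and 301 ends, stood below Met in all 4 libraries with overlapping intervals in this window. The rank of Pdgfra depended on the window. Within 5 kb it was first, with 1897, 1011, 701 and 901 ends or 8.51 times the median promoter in Control, against 1270, 690, 489 and 589 ends or 5.70 times for Fgfr2. It was also first when the transcript start with the most ends was used, with 1341, 717, 443 and 626 ends against 1129, 613, 420 and 506 for Fgfr2. Pdgfrb, with 359, 186, 163 and 212 ends or 3.39 times the median in Control, was the lowest of the marked receptors in every library, and its interval met that of neither neighbour in any.

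Kit and Kdr were at the level of unmarked chromatin. Kit had 59, 54, 79 and 59 ends and Kdr 53, 45, 55 and 48, between 0.500 and 0.975 times the median promoter. Set against the ends per kb found 50 to 500 kb away outside enriched regions, the pooled level was 0.988 (95% Poisson interval 0.870 to 1.12) at Kit and 0.879 (0.762 to 1.01) at Kdr, while at the marked receptors it ran from 3.81 at Pdgfrb to 11.1 at Egfr. These flanks themselves held 0.856 (Axl) to 1.34 (Pdgfra) times the median flank of coding promoters. The fold over the flank depended on the library: that of the highest receptor was largest in Control, and 11.9, 6.47 and 8.39 in the other libraries.

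**Figure D1:**
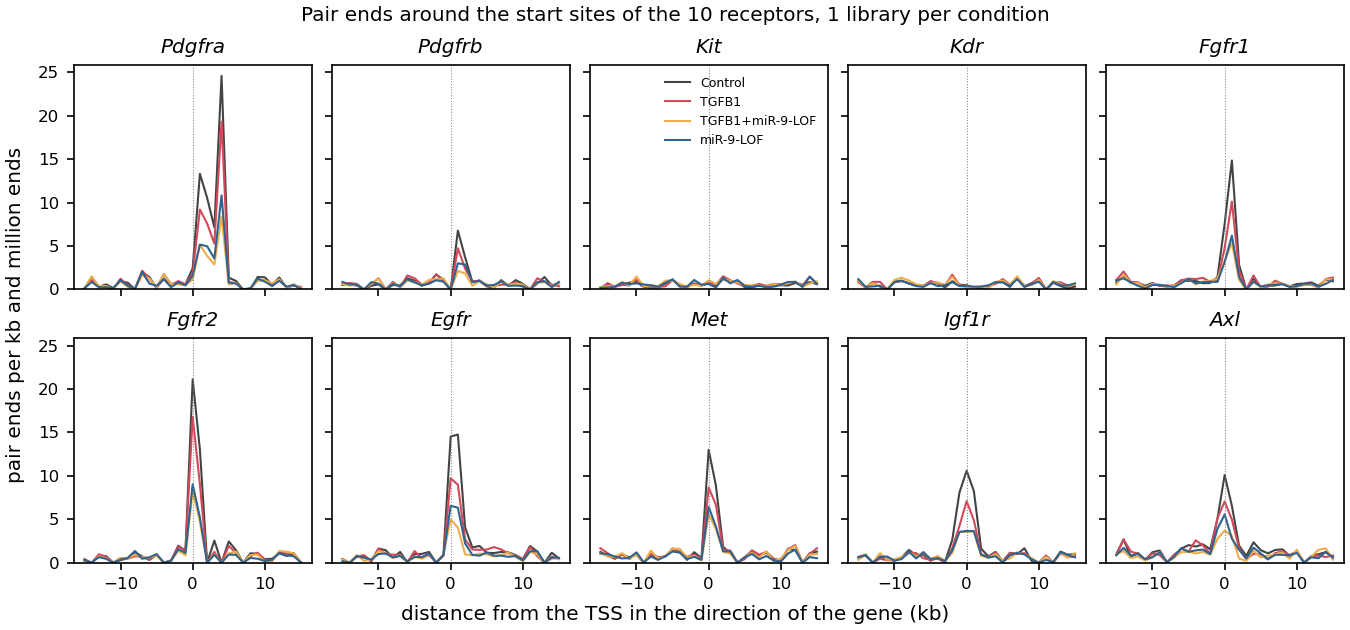
Pair ends per kb, scaled to the ends of each library, in 1-kb bins from 15 kb upstream to 15 kb downstream of each receptor's start site, 1 line per library. The marked receptors peak within 1 kb of the start except Pdgfra, whose highest bin lies 4 kb downstream, at another annotated start of the gene. No bin of Kit or Kdr passes 2.66 times the flank.

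At Pdgfra the mark lay downstream of the start site used for counting rather than on it. Another annotated coding transcript of the gene starts 3593 bases downstream, at 75155899, within the bin at 4 kb. The 1-kb bin at the start held 196 pooled ends, the bins at 1, 2 and 3 kb downstream held 915, 753 and 527, and the bin at 4 kb held 1749, which was 23.8 times the flank. Its enriched region measured 4 kb, the widest of the receptors, against 3 kb at Igf1r, 2 kb at Fgfr1, Fgfr2, Egfr and Met, and 1 kb at Pdgfrb and Axl. Ends can only fall near MboI sites, of which the 4 kb around the Pdgfra start held 6 and those around Igf1r 5, compared with 7 to 14 at the other receptors. The window of 1 kb held only 373 of the 1535 pooled ends of Pdgfra.

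**Figure D2:**
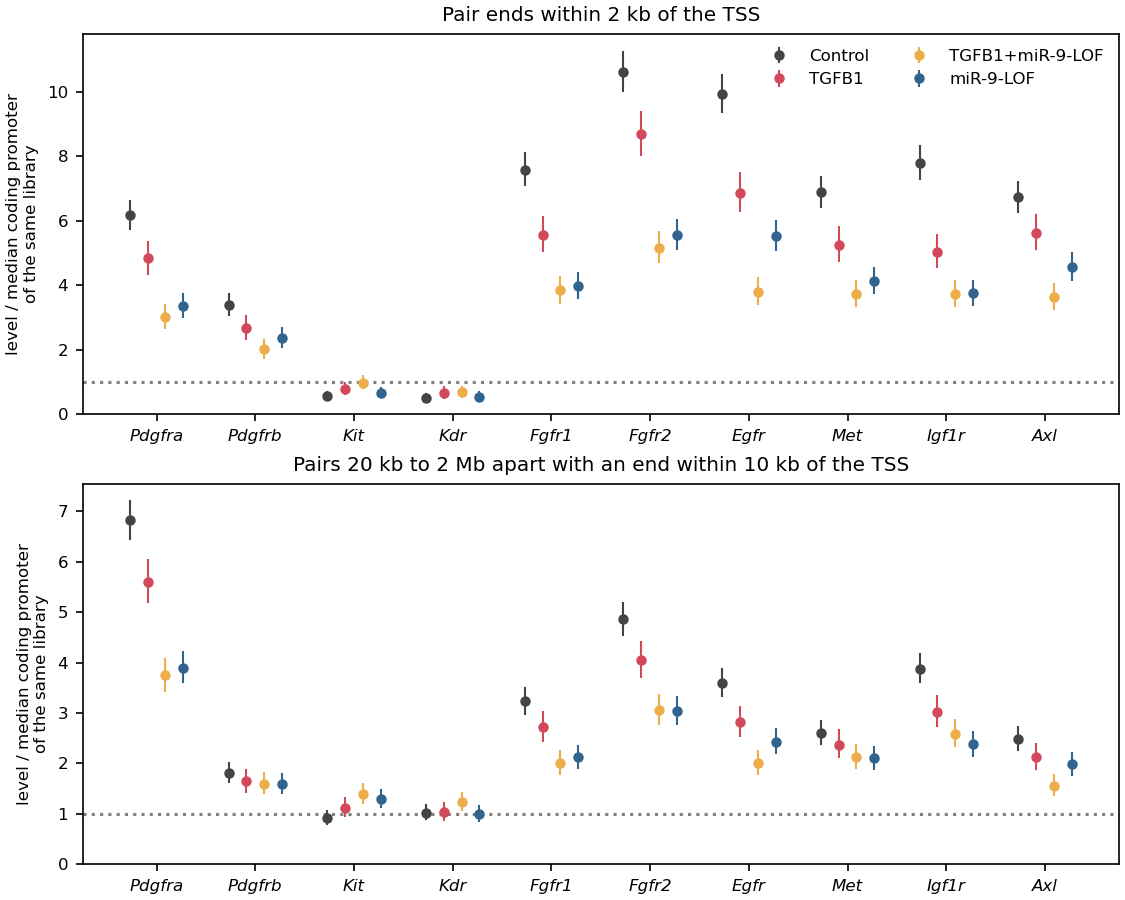
Level of each receptor divided by the median coding promoter of the same library, for ends within 2 kb (top) and pairs 20 kb to 2 Mb apart (bottom). Bars are 95% counting intervals and the dotted line is the median promoter. Control is the highest library at the 8 marked receptors in both panels, whereas Kit and Kdr lie near 1 or below it for ends.

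Contacts put Pdgfra first, as did ends within 5 kb but not within 2 kb. Pairs 20 kb to 2 Mb apart with an end within 10 kb of the start were counted, again against the median coding promoter. Pdgfra came first with 1167, 645, 487 and 562 pairs, 6.82, 5.61, 3.75 and 3.90 times the median, and its pooled count was at the 99.9th percentile of coding promoters although its ends within 2 kb were at the 91.1st. Fgfr2 was second with 831, 466, 398 and 437 pairs, at the 99.1st percentile. The intervals of Pdgfra and Fgfr2 did not overlap in any library. Igf1r (664, 348, 336 and 343), Egfr (615, 324, 260 and 350), Fgfr1 (553, 313, 260 and 305), Met (446, 273, 276 and 302) and Axl (425, 245, 202 and 285) followed, and each neighbouring pair in this order had overlapping intervals in at least 3 libraries. Pdgfrb had 310, 189, 207 and 228 pairs. Kit, with 157, 128, 181 and 186 pairs, and Kdr, with 175, 118, 160 and 143, had 0.918 to 1.39 times the contacts of the median promoter, and their intervals overlapped in all 4 libraries. The interval of Kit lay above the median promoter in TGFB1+miR-9-LOF and in the library with miR-9-LOF alone, and that of Kdr in TGFB1+miR-9-LOF.

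The contacts of Pdgfra were far and one-sided. Of its 2861 pooled contacts, 36.0% were 500 kb to 2 Mb long, 50.9% were 100 to 500 kb and 13.1% were 20 to 100 kb, compared with medians of 19.2%, 41.8% and 36.8% over the 20519 coding promoters with at least 100 contacts. In 85.7% (95% Wilson interval 84.4% to 86.9%) the other end lay upstream of the gene, and the share was 85.6%, 86.2%, 88.5% and 82.9% by library. Only 0.322% of these promoters had contacts as one-sided in either direction. Against the number expected from distance and the coverage of both ends, Pdgfra had 2443 pairs upstream where 2190 were expected and 405 downstream, the side of Kit and Kdr, where 1769 were expected, ratios of 1.12 and 0.229. The downstream ratio was 0.251, 0.222, 0.163 and 0.256 in the 4 libraries and the upstream ratio 1.10, 1.08, 1.15 and 1.16. These ratios are not set against those of all promoters. At the other receptors the pooled ratio of a side ran from 0.396 (Fgfr2, upstream) to 1.28 (Pdgfrb, upstream).

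Upstream of Pdgfra, the excess over expectation lay far from the gene. In steps of 100 kb, the ratio was 0.333 within the first 100 kb, and 0.933 in the next. From 200 to 900 kb it was above 1 in every step, at 1.46, 1.51, 1.56, 2.24, 2.08, 2.45 and 3.04 (149 pairs, 49.0 expected at 800 to 900 kb). It was 0.917 at 900 to 1000 kb, and again higher at 1300 to 1400 kb (1.60) and 1400 to 1500 kb (2.25, 1.60 to 3.08). The strongest 10-kb bin, among bins with at least 20 pairs, lay 840 to 850 kb upstream within Scfd2, at chr5:74302306-74312305. It held 35 pairs where 5.69 were expected, 6.15 times (95% interval 4.29 to 8.56), and 2.32% of the 14491 coding promoters with such a bin had one as strong. The bin was picked for its ratio in the 4 libraries pooled, so its interval and the values by library are no independent support. The libraries held 12, 8, 6 and 9 pairs in the order above, 5.09, 5.71, 6.10 and 9.51 times the expected number. No enriched region lay in this bin. Bins, steps and sides were examined after the contact profiles had been seen and are descriptions.

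**Figure D3:**
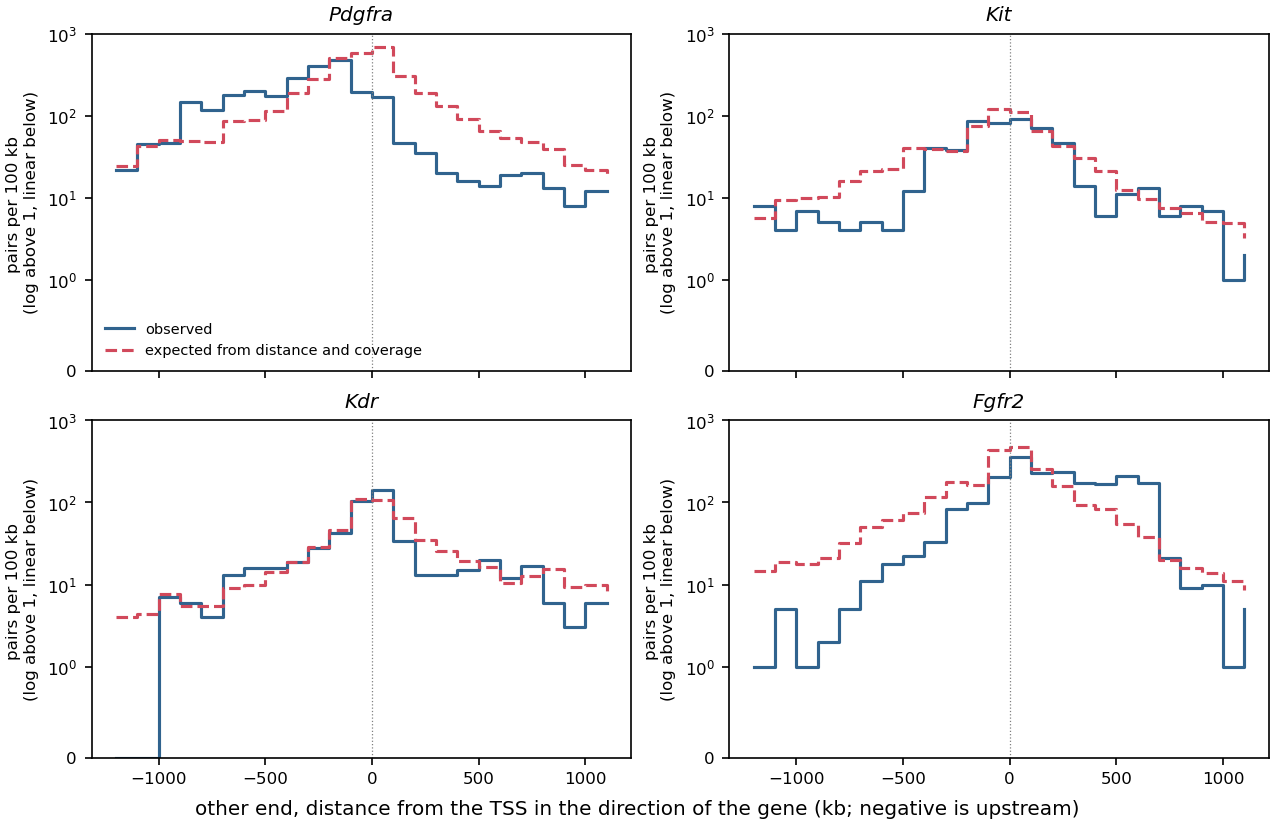
Pooled pairs per 100 kb joining the start sites of Pdgfra, Kit, Kdr and Fgfr2 (within 10 kb) to the surrounding sequence up to 1200 kb away, in the direction of each gene, observed (solid) and predicted from distance and coverage (dashed). Pdgfra exceeds the expected number from 200 to 900 kb upstream, and falls short of it in the first 100 kb upstream and in all steps downstream, Fgfr2 exceeds it from 200 to 700 kb downstream, and Kit falls short at 400 to 800 kb upstream.

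Pairs joining the promoters of Pdgfra, Kit and Kdr were rare. Over the 4 libraries, 5 pairs joined Pdgfra and Kit, 423 kb apart, where 22.4 were expected from distance and coverage. A single pair (1) joined Kit and Kdr, 404 kb apart, with 5.12 expected, and 2 pairs joined Pdgfra and Kdr, 826 kb apart, with 8.49 expected. By library in the order above, Pdgfra and Kit had 2, 2, 0 and 1 pairs, Kit and Kdr 0, 1, 0 and 0, and Pdgfra and Kdr 1, 0, 0 and 1. A count of 0 in a library allows up to 3 pairs, so that no difference between conditions was detectable at this depth. The 3 together reached 0.222 (95% interval 0.0958 to 0.437) of the expected number.

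The size of this shortfall is read against promoter pairs in general and changed with the way the expected number was made. Among the 188980 pairs of coding promoters with at least 5 expected contacts, the median ratio was 0.559, and within 50 kb of the same distance it was 0.443 for Pdgfra and Kit, 0.459 for Kit and Kdr, and 0.295 for Pdgfra and Kdr. At these distances 19.8%, 15.1% and 42.3% of pairs had a ratio as low. When the expected number was taken from distance alone, the 3 pairs together had 8 contacts at 1.01 times expectation, and within 25 kb of the starts they had 51 at 0.419 times.

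Fgfr2 was one-sided in the opposite sense. Only 23.3% (95% Wilson interval 21.5% to 25.1%) of its contacts lay upstream, 22.7% to 23.7% in the 4 libraries, and 2.01% of promoters were as one-sided. Downstream it had 1635 pairs where 1304 were expected and upstream 495 where 1251 were expected. The downstream ratio was 0.736 in the first 100 kb, 3.87 at 500 to 600 kb and 4.54 at 600 to 700 kb, and was 1.05 in the next step. Its strongest bin, at chr7:129646191-129656190, lay 610 to 620 kb downstream of the start, held no annotated gene and no enriched region, and was 10.5 kb from the nearest coding gene, Wdr11. It held 75 pairs where 8.71 were expected, 8.61 times (6.77 to 10.8), and 0.676% of coding promoters had a bin as strong. The libraries gave 33, 15, 15 and 12 pairs, which were 9.21, 8.03, 8.84 and 7.69 times the expected number, with intervals that all overlapped. This bin too was picked for its ratio in the same libraries pooled.

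The remaining receptors had nearer or weaker strongest bins. Only bins with at least 20 pairs were ranked, which a far bin with few expected pairs reaches only at a high ratio. The distances and ratios compared here, and the shares of promoters with a bin as strong, depend in part on that minimum. Fgfr1 had 87 pairs with a bin 240 to 250 kb upstream, 3.56 times the expected number (2.86 to 4.40), and this was the only one of the 10 bins that held an enriched region. Egfr had 49 pairs with a bin 220 to 230 kb upstream (3.24 times), Igf1r 25 with one 310 to 320 kb downstream (3.23 times), Pdgfrb 53 with one 50 to 60 kb upstream within Camk2a (2.50 times), Met 38 with one at the end of its own gene, 100 to 110 kb downstream (2.30 times), and Axl 111 with one 20 to 30 kb downstream within its own gene (2.20 times). At the median promoter the strongest bin reached 1.87 times. Kit at 1.11 and Kdr at 1.59 times stayed below that, both in their own genes and with intervals that included 1.

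**Figure D4:**
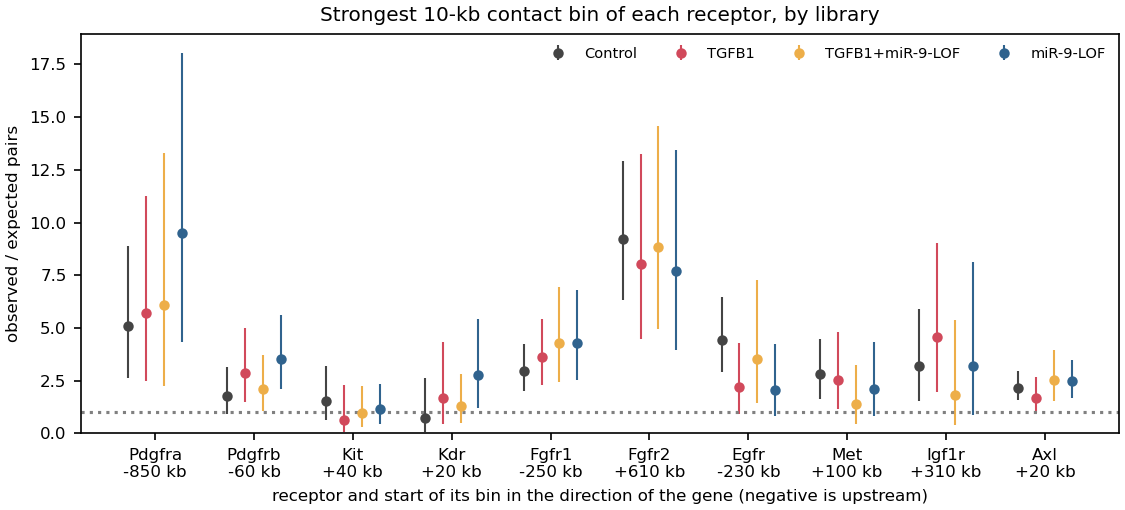
Observed over expected pairs in the strongest 10-kb bin of each receptor, by library, with 95% counting intervals. Each bin was picked for its ratio in the same 4 libraries pooled. The ratio of Fgfr2 lies between 7.69 and 9.21 in all 4 libraries and that of Pdgfra between 5.09 and 9.51, and the dotted line marks the expected number.

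Pairs with the promoters of other coding genes were also counted. For each receptor, the promoter with the highest ratio among those with at least 20 pairs was Fip1l1 for Pdgfra (75 pairs, 42.1 expected, 617 kb away), Cd74 for Pdgfrb (26, 9.99 expected), Fbxo48 for Egfr (59, 34.0 expected), Tes for Met (27, 17.2 expected), Fam169b for Igf1r (37, 12.7 expected) and Hnrnpul1 for Axl (303, 213 expected, 33.9 kb away). The highest ratio of Fgfr1, with Letm2, was 0.500, and that of Fgfr2, with Ate1, was 0.403, both under expectation. Pairs of coding promoters in general were under it too, with a median ratio of 0.559 among those with at least 5 expected contacts. Kit and Kdr had no promoter partner with 20 pairs. The promoter of Tgfb1, the gene of the cytokine used as the treatment, lies 102 kb from that of Axl, and the pair had 76 contacts where 81.4 were expected. It was picked after its value was seen. Of the contacts of Axl, 18.6% ended in an enriched region, at or above the share of 93.9% of promoters. For the other receptors the share was 1.41% (Fgfr2) to 7.82% (Pdgfrb). All of these except Pdgfrb lay below the median of 6.70% over coding promoters with at least 100 contacts.

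The TGFB1 and Control libraries were compared at the receptors, which with 1 library each cannot show what TGFB1 did. Of the 10 receptors, 3 had fewer ends in TGFB1: Igf1r (a log2 ratio of -0.47 relative to the median coding promoter, 95% counting interval -0.65 to -0.29, adjusted p = 0.000144), Egfr (-0.37, -0.53 to -0.21, adjusted p = 0.000574) and Fgfr1 (-0.28, -0.46 to -0.11, adjusted p = 0.0233), by exact binomial tests with Benjamini-Hochberg adjustment over all promoters tested. Of these, 7.38% were called lower and 2.58% higher, and 0 receptors were called higher. Among promoters with an enriched region, as all called receptors had, 17% were called lower. Relative to the median no receptor was lower by 1.5-fold or more, as 1.56% of promoters were. The ratio of Kit was 0.63 (0.07 to 1.19, exact adjusted p = 0.131), and that of Kdr 0.53 (-0.08 to 1.13). Fewer contacts were found for Igf1r (-0.30, exact adjusted p = 0.0375) and Pdgfra (-0.23, adjusted p = 0.0357), against 3.48% of promoters called lower (7.33% of those with an enriched region) and 1.14% higher, and none fell by 1.5-fold (0.666% of promoters).

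The called receptors all carried the mark. The median promoter itself had a log2 ratio of -0.26 scaled to library size, those with an enriched region -0.44, and the share of ends in enriched regions went from 9.55% to 6.88%. When each promoter was instead compared with the median of its own decile of level, 0 receptors were called for ends (1.12% of all promoters, exact binomial test) or contacts (0.565%). The intervals of 2 receptors for ends, Igf1r and Egfr, and of 0 for contacts excluded 0. Igf1r had the lowest value for ends, -0.28 (-0.46 to -0.10, exact adjusted p = 0.105). The split of all calls also moved with the scale: 25.9% of the calls for ends were higher relative to the median and 50.4% relative to the decile, and for contacts 24.6% and 71.2%. In TGFB1+miR-9-LOF over TGFB1 these shares were 22.2% and 63.4% for ends and 15.6% and 63.5% for contacts. In miR-9-LOF over Control they were 33.6% and 45.1% for ends and 39.0% and 46.8% for contacts. The median log2 ratio of the 10 receptors for ends was -0.19 relative to the median promoter and -0.01 relative to the decile.

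The TGFB1+miR-9-LOF and TGFB1 libraries were compared in the same way, as the libraries with and without the loss of miR-9 under TGFB1. Of the receptors, 6 had fewer ends: Egfr (-0.69, -0.90 to -0.48), Fgfr2 (-0.58), Pdgfra (-0.52), Axl (-0.46), Fgfr1 (-0.36) and Met (-0.33), with adjusted p from 6.87e-09 for Egfr to 0.0209 for Met, against 18.4% of promoters called lower (44.0% of those with an enriched region) and 5.24% higher. Egfr alone was lower by 1.5-fold or more, as 4.34% of promoters were. Igf1r and Pdgfrb, at -0.27 and -0.23, were not called, and Kit and Kdr had positive ratios of 0.51 and 0.25 that were not called either. Contacts were fewer for Pdgfra (-0.56, exact adjusted p = 2.4e-07), Egfr (-0.47), Axl (-0.43), Fgfr1 (-0.42) and Fgfr2 (-0.38), with 5.89% of promoters called lower (12.9% of those with an enriched region), 1.09% higher and 1% lower by 1.5-fold or more, which no receptor was. The share of ends in enriched regions went from 6.88% to 4.02% between these libraries. Against promoters of the same decile of level, 0 receptors were called for ends (0.788% of promoters) or contacts (0.302%), and the values ranged from -0.25 (Egfr) to 0.17 (Igf1r) for ends and from -0.27 (Pdgfra) to 0.34 (Kit) for contacts. The intervals of Egfr for ends (-0.46 to -0.04) and of Pdgfra (-0.44 to -0.10) and Kit (0.0048 to 0.68) for contacts excluded 0 before adjustment.

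**Figure D5:**
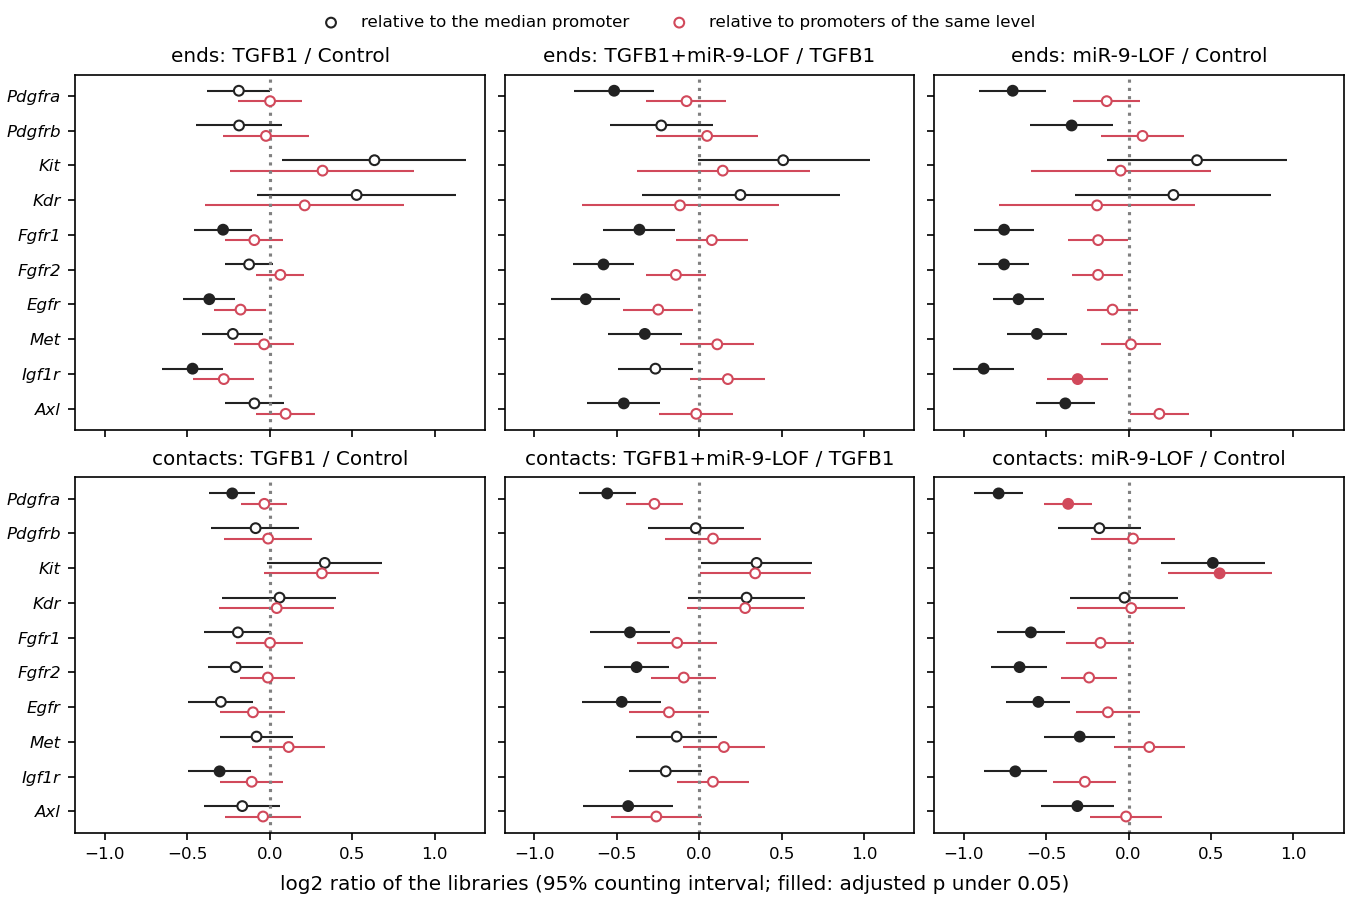
Log2 ratio of 2 libraries for ends (top) and contacts (bottom) of each receptor in the 3 comparisons, relative to the median coding promoter (black) and to promoters of the same decile of level (red), with 95% counting intervals. Filled points have an adjusted p under 0.05. Most black points of the marked receptors lie left of 0 and the red points around it, with 3 red points filled: Igf1r for ends and Pdgfra and Kit for contacts in miR-9-LOF over Control.

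Without TGFB1, every marked receptor had fewer ends in the miR-9-LOF library. Relative to the median promoter, the 8 were called lower in miR-9-LOF than in Control, from Igf1r (-0.88, -1.07 to -0.69, exact adjusted p = 2.21e-20) through Fgfr2 (-0.75), Fgfr1 (-0.75), Pdgfra (-0.70), Egfr (-0.67) and Met (-0.56) to Axl (-0.38) and Pdgfrb (-0.34, adjusted p = 0.0153). Over all promoters 33.7% were called lower and 17% higher, and among those with an enriched region 78.0% lower. The ends of Kit (0.42, -0.13 to 0.96) and Kdr (0.27, -0.32 to 0.86) gave no call. A fall of 1.5-fold or more was found for 5 receptors and for 13.5% of promoters. This comparison shares the Control library with that of TGFB1.

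At like level, Igf1r was the 1 receptor called for ends, and no difference between receptors was tested. Against its decile, its log2 ratio was -0.31 (-0.50 to -0.12, exact adjusted p = 0.0163), and 9.73% of promoters were called on this scale in either direction. Against its percentile of level, an alternative added after seeing the data, it was -0.34. The other receptors lay between -0.19 (Kdr) and 0.19 (Axl, 0.01 to 0.36, exact adjusted p = 0.195) and were not called. Among them, Fgfr2 (-0.18, -0.34 to -0.03, exact adjusted p = 0.116) and Fgfr1 (-0.18, -0.37 to -0.0028, exact adjusted p = 0.213) had negative ratios with intervals that excluded 0 before adjustment, and 7 of the 10 receptors lay below 0.

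In contacts, Kit and Pdgfra moved in opposite directions between the same libraries. Kit had 186 pairs in miR-9-LOF and 157 in Control, which was higher relative to the median promoter (0.51, 0.20 to 0.83, exact adjusted p = 0.00608), with 14.8% of promoters called higher. Pdgfra, with 562 and 1167 pairs, was lower (-0.79, -0.94 to -0.64, exact adjusted p = 4.41e-24), as were Igf1r (-0.69), Fgfr2 (-0.66), Fgfr1 (-0.59), Egfr (-0.55), Axl (-0.31) and Met (-0.30), with 23.2% of promoters called lower (49.8% of those with an enriched region). Of these, 4 were lower by 1.5-fold or more, as 4.12% of promoters were. Kdr (-0.02) and Pdgfrb (-0.18) were not called. On the scale of like level, on which 10% of promoters were called, Kit remained higher at 0.55 (0.24 to 0.87, exact adjusted p = 0.0113) and Pdgfra lower at -0.37 (-0.51 to -0.22, adjusted p = 0.000124). Fgfr2 (-0.24, -0.41 to -0.07) and Igf1r (-0.26, -0.46 to -0.07) were not called. The deciles were set by level and not by the mark. Scaled to library size, the median ratio was -0.24 over all promoters and -0.56 over marked ones. Kit was not compared with unmarked promoters alone. Pdgfra has more contacts than nearly all promoters of its decile, and against its percentile of level its ratio was -0.27 (exact adjusted p = 0.00683) and that of Kit 0.63 (adjusted p = 0.00313). Scaled to library size alone, without centring on the median promoter, the ratio of Kit was 0.27 (exact adjusted p = 0.171) and was not called. The share of ends in enriched regions was 9.55% in Control and 4.66% in miR-9-LOF, and relative to the median promoter with an enriched region the ratio of Pdgfra was -0.48 (exact adjusted p = 3.14e-08).

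The effect of TGFB1 with and without miR-9-LOF was compared by the difference of the log2 ratios, TGFB1+miR-9-LOF over miR-9-LOF minus TGFB1 over Control, relative to the median promoter, by a Wald chi-square test of the 4 counts. For ends, Igf1r differed: its ratio scaled to library size was -0.73 without and -0.02 with miR-9-LOF, and relative to the median promoter they differed by 0.57 with a counting SE of 0.15 (chi-square adjusted p = 0.0426), and 0.285% of promoters were called. Its 4 counts came from 1 library each, and Control was the highest. Fgfr1 had a difference of 0.34 (SE 0.14, chi-square adjusted p = 0.312). For contacts 0 receptors and 0.129% of promoters were called by this test, with 2 receptors, Igf1r (0.47, chi-square adjusted p = 0.156) and Fgfr2 (0.26, adjusted p = 0.449), at an unadjusted p under 0.05. The difference of Igf1r kept its sign under all 10 alternatives but was not called under 5, with adjusted p from 0.0823 to 0.508. These were a window of 1 kb, a mapping quality of at least 30, centring on marked promoters or on the same decile of level, and counting each pair of fragments once.

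Genes of the same pathway were counted by their roles, and 38.1% of all coding promoters had an enriched region. Of 22 ligands, 15 had an enriched region, led by Vegfa, Pdgfb and Vegfb, with a median of 2.42 times the median promoter in Control. Among 25 other receptor tyrosine kinases, 8 had one, led by Epha2, Erbb2 and Ror2, and the median was 0.981. The adaptors and effectors that carry the signal inward had a region at 15 of 18, led by Gab1, Frs2 and Sos1 (median 5.22), and the feedback inhibitors at 12 of 13, led by Dusp6, Spred1 and Socs3 (median 5.86). The 10 receptors had a median of 6.80. Of these lists, 12 of 22 ligands, 5 of 25 other kinases, 16 of 18 adaptors and effectors and 12 of 13 feedback inhibitors had fewer ends in miR-9-LOF than in Control at an adjusted p under 0.05, and 0, 3, 1 and 1 had more, against 33.7% of all promoters and 78.0% of those with an enriched region called lower and 17% of all called higher. At like level the numbers lower were 1, 0, 2 and 2 and the numbers higher 0, 1, 0 and 0, where 9.73% of all promoters were called in either direction. Dusp6, a phosphatase induced by MAPK signalling that shuts it down, had 1744, 896, 645 and 678 ends by library. In TGFB1 over Control 2, 2, 6 and 7 members of the lists were called lower and 0 higher, where 7.38% of all promoters and 17% of those with an enriched region were lower, and at like level 0, 0, 2 and 0 were lower and 0 higher (1.12% of all promoters in either direction). In TGFB1+miR-9-LOF over TGFB1, 5, 4, 9 and 7 were lower and 1, 3, 0 and 0 higher, where 18.4% of all promoters and 44.0% of those with an enriched region were lower and 5.24% of all higher, and at like level 0, 1, 0 and 0 were lower and 0, 0, 1 and 0 higher (0.788% of all promoters in either direction).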

How the data were processed

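H3K4me3 HiChIP valid pairs of 4 libraries of MLg cells were analysed, grouped by the labels, with 1 library per condition. The authors ran HiC-Pro with default settings on the mm10 genome, assigned ends to MboI fragments and removed duplicates. The deposited lists hold positions, 1 line per pair, and the deposited mapping quality score of each end, used here only as a filter. Pairs were tallied in pandas 2.3.3 and numpy 2.4.6 (Python 3.11.15), and tests came from scipy 1.17.1, and plots were made with matplotlib 3.10.9.

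Start sites were those of the basic protein-coding transcript that APPRIS ranks first in GENCODE. The 5′ end of the gene record had been planned, but lies 2857 kb from the Fgfr2 promoter, on a read-through transcript, and 5.11 kb from that of Fgfr1, so it became an alternative. Enriched regions were 1-kb bins with 4 times or more the ends of both the surrounding 50 kb on each side and the chromosome mean (false discovery rate 0.01) in the libraries thinned to equal size. Libraries were compared by a two-sided exact binomial test of 2 counts, centred on the median coding promoter or on the same decile of pooled level, with at least 20 counts and Benjamini-Hochberg adjustment over all promoters. The expected number of pairs was the product of the coverages and a distance factor in 1-kb bins. Intervals cover counting error only. The difference of the TGFB1 effects used a Wald chi-square test of the 4 counts. Alternatives changed windows, distances, mapping quality, start sites, centring, the count minimum and the counting of fragment pairs. Scaling to the same percentile of level, bins, sides and steps were added after seeing the data. The exact binomial comparison was checked on simulated Poisson counts, and the Wald chi-square test was not. Members, lists and tests were chosen with earlier results of these data known. The planned rule named every list gene that was called. Because so many promoters were called, such genes were counted instead, and the 3 of each list with the most ends were named.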

Additional observations from a re-analysis of the deposited data

Results flagged for a closer look

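The log2 ratio of ends at the Igf1r start site between the libraries with and without TGFB1 differed between the pair with miR-9-LOF and the pair without it, by 0.565 (adjusted p = 0.0426 by a Wald chi-square test of the 4 counts, with counting error only). It compares 4 single libraries, not conditions. Without miR-9-LOF the count was 826 in Control and 352 in TGFB1, and with it 337 in miR-9-LOF and 301 in TGFB1+miR-9-LOF. The share of ends in enriched regions was 9.55%, 6.88%, 4.66% and 4.02% in these libraries. Relative to promoters with an enriched region the difference was 0.47 (chi-square adjusted p = 0.144), and at the same decile of level 0.48 (chi-square adjusted p = 0.158). It was not called under 5 of 10 alternatives, with chi-square adjusted p from 0.0823 to 0.508.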

How the results depend on the processing

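Of 940 receptor values recomputed under alternatives, 97 changed sign, of which 23 had been called and 74 had not. With a window of 5 kb or the start with the most ends, Pdgfra ranked first for ends in place of Fgfr2. The numbers of receptors called are given with the share of all promoters called in either direction under the same setting. Receptors called under an alternative were not always those called as reported. For ends in TGFB1 over Control, 3 (9.96%) became 0 (3.19%) with a window of 1 kb, 6 (18.9%) with 5 kb, 8 (36.8%) without centring, 1 (7.70%) centred on marked promoters, 0 (1.12%) at the same decile and 0 (1.05%) at the same percentile of level. Between both treatments and TGFB1 alone, 6 (23.6%) became 3 (12.9%) at 1 kb, 3 (25.6%) centred on marked promoters, 0 (0.788%) at the decile and 0 (0.573%) at the percentile. Of the 3 centred on marked promoters, 2 had been called as reported. In miR-9-LOF over Control, 8 (50.7%) became 5 (39.9%) at 1 kb, 1 (9.73%) at the decile and 1 (9.14%) at the percentile. Centred on marked promoters, 6 (52.1%) were called, of which 4 had been called as reported. For contacts in TGFB1 over Control, 2 (4.62%) became 1 (1.78%) with a window of 5 kb, 0 (10.4%) with 25 kb, 1 (3.59%) for 20 kb to 1 Mb, 0 (0.958%) for 100 kb to 2 Mb, 6 (17.7%) without centring, 0 (5.24%) centred on marked promoters, 0 (0.565%) at the decile, 0 (0.632%) at the percentile and 0 (3.38%) with fragment pairs counted once. The 1 receptor called with a window of 5 kb was neither Igf1r nor Pdgfra. Between both treatments and TGFB1 alone, 5 (6.98%) became 1 (1.45%) for 100 kb to 2 Mb, 2 (8.84%) centred on marked promoters, 0 (0.302%) at the decile and 0 (0.216%) at the percentile. Of the 2 centred on marked promoters, 1 had been called as reported. In miR-9-LOF over Control, 8 (38.0%) became 2 (10%) at the decile and 2 (9.34%) at the percentile. The difference of TGFB1 effects for ends, 1 (0.285%), became 0 at 1 kb (0.155%), at mapping quality 30 (0.258%), centred on marked promoters (0.281%), at the decile (0.198%) and with fragment pairs once (0.136%), and 2 (3.50%) without centring. For contacts, 0 (0.129%) became 1 (0.940%) without centring.

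Of the ratios called as reported, those that changed sign were as follows. With the start of the gene record, Fgfr1 had 0.52 for ends in TGFB1 over Control and 0.28 in miR-9-LOF over Control, and with a window of 1 kb, which leaves out most of its mark, Pdgfra had 0.22 in the latter. For ends between both treatments and TGFB1 alone, Met had 0.0134 centred on marked promoters, 0.11 at the same decile and 0.0906 at the same percentile, and Fgfr1 0.0767 and 0.0567 at the decile and percentile. For ends in miR-9-LOF over Control, the values centred on marked promoters, the decile and the percentile were 0.14, 0.0849 and 0.0736 for Pdgfrb and 0.10, 0.19 and 0.16 for Axl, and Met had 0.0144 and 0.0236 at the decile and percentile. For contacts in miR-9-LOF over Control, Met had 0.0165, 0.13 and 0.0658 on these scales, and Axl 0.0025 centred on marked promoters and 0.0057 at the percentile. At the percentile, the contacts of Pdgfra in TGFB1 over Control had 0.0196 and those of Fgfr2 between both treatments and TGFB1 alone 0.0026. The causes were not tested. The pairs joining Pdgfra, Kit and Kdr went from 0.222 to 1.01 times the expected number when it came from distance alone, and leaving out 1 library at a time gave 0.178 to 0.283. No paired analysis was possible because each condition had 1 library. Depth limited the pairs joining promoters, and with 1 library per condition no value has a replicate error.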
